A study of Zea mays with 6 samples.

Results

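The genes described here are 4 maize genes that move sucrose out of leaf cells and into the phloem: SWEET13a (Zm00001d023677), SWEET13b (Zm00001d023673), SWEET13c (Zm00001d041067) and the sucrose transporter SUT1 (Zm00001d027854). They were chosen by gene identifier, and all 4 of the 4 rows were found among the 45953 features of the deposited count table. All 4 passed the low-count filter, which left 21206 tested features. The names come from the list that defined the set, since the count table gives identifiers alone. Leaves of seedlings aged 2 weeks were compared between PP2CKO, a line of the inbred KN5585 in which ZmPP2C45 had been knocked out by genome editing (n = 3 libraries), and WT, unedited KN5585 (n = 3 libraries). The labels describe 1 knockout line, give no treatment, and do not say whether the libraries of a line came from separate plants or pools. The tests thus set the lines against library-to-library spread, part or all of which could be technical. The transcripts were captured by poly(A) selection from bulk leaf RNA.

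Sucrose made in the mesophyll of a maize leaf reaches the veins through cell connections, is released into the wall space near the phloem, and is then taken up into companion cells and sieve elements. SWEET13a, SWEET13b and SWEET13c are closely related copies of a membrane transporter that lets sucrose flow out of cells down its gradient. SUT1 is a proton-coupled symporter that takes sucrose from the wall space into the phloem against its gradient. Maize lacking all SWEET13 copies, or lacking SUT1, is known to hold sugar and starch back in its leaves and to grow poorly. Members of the protein phosphatase 2C family, to which ZmPP2C45 belongs, act in hormone and stress signalling.

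The libraries held 16314657 to 20502449 counts in PP2CKO and 15923668 to 16368195 counts in WT. The 4 genes drew 9506 to 84502 counts each over the 6 libraries, so counting error was small beside the differences between libraries. Leaf marker symbols and the targeted gene could not be tied to rows of the table, so neither the tissue label nor the knockout label was checked here. Over all tested features, edgeR's quasi-likelihood test with Benjamini-Hochberg adjustment called 7.23% at an adjusted p below 0.05. The share called higher in PP2CKO was 5.15% and the share called lower was 2.08%.

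Among the sucrose export genes, the clear difference was in SWEET13b, which rose 2.40-fold in the knockout leaves. SWEET13a and SWEET13c did not pass the test, at 1.14-fold and 1.24-fold of WT. The SUT1 estimate pointed the other way, with 669.6 ± 53.9 CPM in PP2CKO and 981 ± 163 CPM in WT (± SD, n = 3 per line), but it missed the threshold (edgeR adjusted p = 0.0697). In all, 1 of the 4 genes was called, and a set this small has no informative comparison with the 7.23% of all features. CPM here is the count rate of a library after scaling by trimmed mean of M values (TMM). It is not divided by transcript length, so levels are compared between lines and not between genes.

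**Figure D1:**
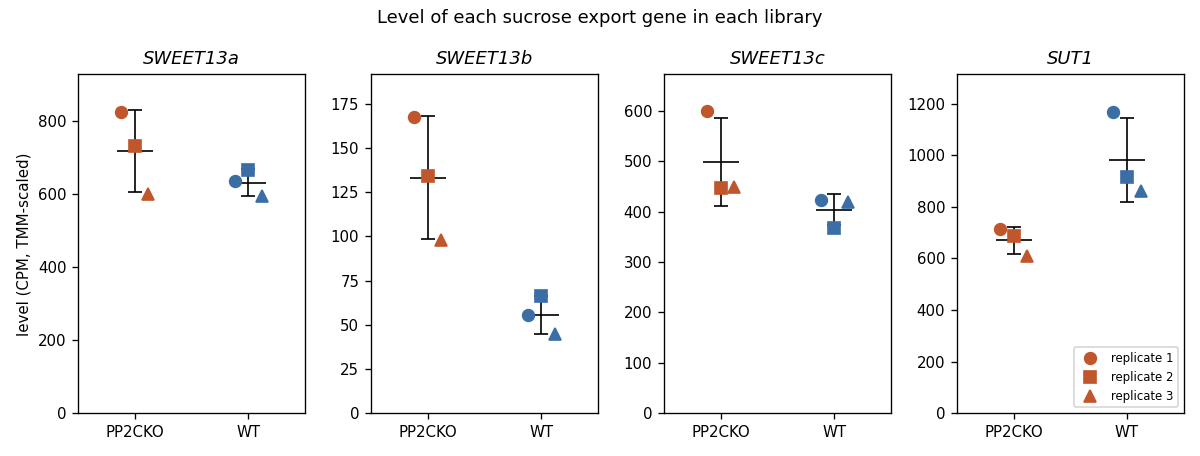
Level of each gene in CPM (vertical axes from 0, a scale of its own for each gene) in the 3 PP2CKO libraries and the 3 WT libraries, with the replicate number of the title as marker shape and the mean and SD as black bars. SWEET13b lies between 97.9 and 168 CPM in PP2CKO, above all WT libraries, and SUT1 lies between 609 and 712 CPM in PP2CKO, below all WT libraries.

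SWEET13b stood at 168, 134 and 97.9 CPM in PP2CKO replicates 1, 2 and 3, against 55.4, 66.5 and 44.8 CPM in WT replicates 1, 2 and 3. The lines did not overlap, and the lowest PP2CKO library was above the highest WT library. Such a separation, in either direction, was found in 28.2% of all tested features. Means were 133 ± 34.8 CPM in PP2CKO and 55.6 ± 10.9 CPM in WT (± SD, n = 3 per line). The log2 fold change of PP2CKO over WT was 1.26 ± 0.21 (SE), with a 95% interval of 0.81 to 1.71, or 1.75-fold to 3.28-fold (edgeR adjusted p = 0.00495). Of all tested features, 96.1% had a lower log2 fold change. The median rise among features called higher was 2.16-fold, so the change in SWEET13b was of ordinary size for a called feature.

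The spread of SWEET13b among libraries of a line was far above counting error. Its coefficient of variation was 26.1% in PP2CKO and 19.5% in WT, where counting alone would give 2.13% and 3.23%. Within the knockout the rise was uneven, since replicate 1 was at 3.02 times the WT mean, replicate 2 at 2.42 times and replicate 3 at 1.76 times. The call remained whichever library was left out. With 1 library left out the log2 fold change ran from 1.062, without PP2CKO replicate 1, to 1.44, without PP2CKO replicate 3, and the highest edgeR adjusted p was 0.0383.

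SWEET13a stood at 826, 732 and 601 CPM in PP2CKO replicates 1, 2 and 3, against 635, 667 and 594 CPM in WT replicates 1, 2 and 3. The lines overlapped, because PP2CKO replicate 3 lay among the WT libraries. The log2 fold change was 0.19 ± 0.17 (SE), with a 95% interval of -0.17 to 0.54 (edgeR adjusted p = 0.535). A rise above 1.46-fold and a decrease below 0.888-fold of WT lie outside that interval. The estimate was also 0.19 with RLE size factors and with upper-quartile scaling. Its sign turned only with library size alone, which gave -0.04 and put the median of all features at -0.23. Under TMM without PP2CKO replicate 1 the estimate was 0.07 (edgeR adjusted p = 0.86).

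SWEET13c stood at 600.1, 447 and 450 CPM in PP2CKO replicates 1, 2 and 3, against 424, 369 and 419 CPM in WT replicates 1, 2 and 3. The lines did not overlap after TMM scaling, as in 28.2% of all tested features. The gap was narrow beside the spread, and the shares of unscaled library totals overlapped. The log2 fold change was 0.30 ± 0.17 (SE), with a 95% interval of -0.06 to 0.67, or 0.962-fold to 1.59-fold (edgeR adjusted p = 0.297). SWEET13c was within 1.11 times of the WT mean in PP2CKO replicates 2 and 3, and without PP2CKO replicate 1 its log2 fold change was 0.15 (edgeR adjusted p = 0.673).

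SUT1 stood at 712, 687 and 609 CPM in PP2CKO replicates 1, 2 and 3, against 1166, 916 and 861 CPM in WT replicates 1, 2 and 3. All PP2CKO libraries were below all WT libraries, and this also held for shares of unscaled library totals. The libraries of the lines were free of overlap in 28.2% of all tested features, so such a separation is common in this table. The log2 fold change was -0.55 ± 0.17 (SE), with a 95% interval of -0.92 to -0.18, or 0.529-fold to 0.881-fold of WT (edgeR unadjusted p = 0.00666, adjusted p = 0.0697). Of all tested features, 9.55% had a lower log2 fold change.

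The call on SUT1 depended on the test chosen, while its direction did not. Among fits that do not pair libraries by number, DESeq2 put it past the threshold (adjusted p = 0.0128), and limma voom did not (adjusted p = 0.0704). It also passed in edgeR without a low-count filter (adjusted p = 0.0433) and with library size alone (adjusted p = 0.00442). Library size alone put the median of all features at -0.23, and SUT1 lay at -0.53 from that median, against -0.54 under TMM. Pairing libraries by number in edgeR gave an adjusted p of 0.0156, but the libraries were treated as unpaired. WT replicate 1 was the highest library of all, at 1.19 times the WT mean, and without it the log2 fold change was -0.41 (edgeR adjusted p = 0.193). RNA from whole leaf pieces cannot tell fewer phloem cells from less SUT1 RNA per cell, and the same holds for the SWEET13 genes.

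**Figure D2:**
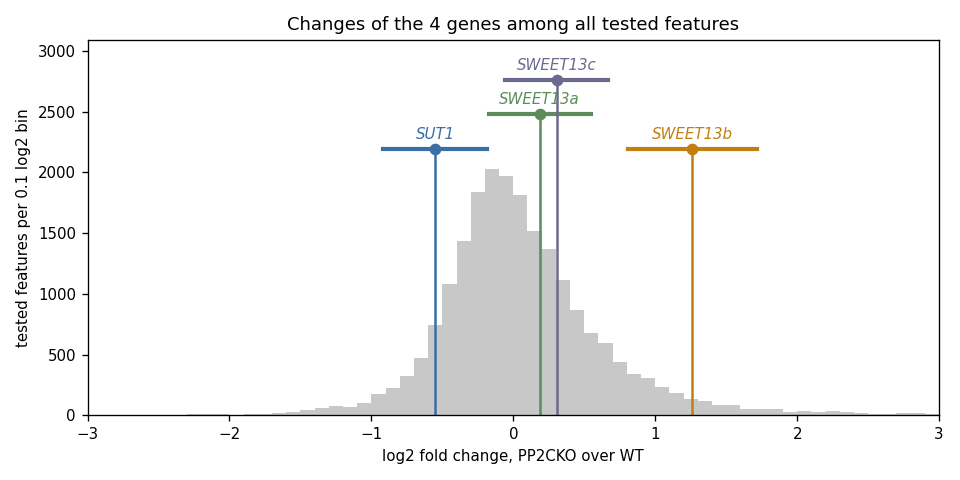
Histogram of the log2 fold change of PP2CKO over WT for tested features in bins of 0.1 (horizontal axis drawn from -3 to 3; vertical axis, features per bin), with a line at the value of each gene and its 95% interval as a horizontal bar. SWEET13b, at 1.26, lies in the right tail, SWEET13a and SWEET13c lie near the bulk, and SUT1 lies on the left flank at -0.55.

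As a set, the 4 genes had a median log2 fold change of 0.25, with SUT1 at one end and SWEET13b at the other. The median over all 21206 tested features was -0.01, with quartiles of -0.28 and 0.33. The directions are relative to this bulk as TMM sets it. Of the features called by edgeR, 1092 were higher and 442 lower in PP2CKO under TMM, and 680 were higher and 1604 lower with library size alone, which put the median of all features at -0.23. A change of scaling moves all features by nearly the same amount, so a gene's distance from the median of all features stays nearly fixed by construction. SWEET13b was 1.27 above that median under TMM and 1.26 above it with library size alone. SUT1 lay at -0.54 and -0.53 from it, and SWEET13a at 0.20 and 0.19 from it.

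Closely related copies can share reads, and how the counting treated reads that match more than 1 copy is not given in the sources used here. The counts of the SWEET13 copies were therefore also added into 1 row, whose total does not depend on how reads were split among them, though reads dropped for matching several copies would still be missing. The sum stood at 1594, 1313 and 1148 CPM in PP2CKO replicates 1, 2 and 3, against 1114, 1102 and 1058 CPM in WT replicates 1, 2 and 3. The lines did not overlap, as in 28.2% of all tested features, yet PP2CKO replicate 3 lay at 1.05 times the WT mean. The log2 fold change was 0.31 ± 0.17 (SE), with a 95% interval of -0.06 to 0.68 (edgeR adjusted p = 0.302), so SWEET13 as a whole did not pass the test. Without PP2CKO replicate 1 the log2 fold change of the sum was 0.17 (edgeR adjusted p = 0.637).

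SWEET13b took a larger share of these counts in the knockout, with counts not corrected for transcript length. It held 10.5%, 10.2% and 8.52% of SWEET13 counts in PP2CKO replicates 1, 2 and 3, against 4.97%, 6.03% and 4.23% in WT replicates 1, 2 and 3. Every PP2CKO library was above every WT library. The share draws on the same SWEET13b counts as the fold change given above, so it is not separate evidence. Separation of the lines in CPM was found in 28.2% of all tested features, and for shares it was not counted. SWEET13a held 53.3% ± 2.13 in PP2CKO and 57.9% ± 2.32 in WT, and SWEET13c held 36.9% ± 2.65 in PP2CKO and 37.0% ± 3.20 in WT (± SD, n = 3 per line).

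**Figure D3:**
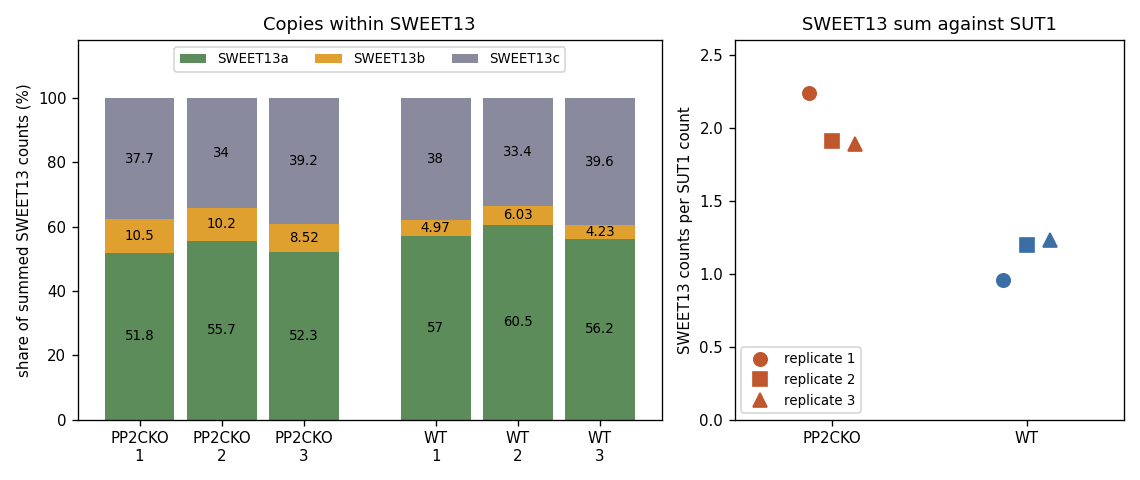
Left, the percentage of summed SWEET13 counts held by each copy in each library, as stacked bars; right, SWEET13 counts (all copies) per SUT1 count in each library, with the replicate number as marker shape. The SWEET13b segment is 8.52% to 10.5% in PP2CKO and 4.23% to 6.03% in WT, and SWEET13 counts per SUT1 count are 1.89 to 2.24 in PP2CKO and 0.956 to 1.23 in WT.

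Ratios within a library do not depend on the scaling, and 3 of them were compared between the lines. SWEET13a had 4.93, 5.44 and 6.14 counts per SWEET13b count in PP2CKO replicates 1, 2 and 3, against 11.5, 10.04 and 13.3 in WT replicates 1, 2 and 3. The lines did not overlap, and the log2 ratio averaged 2.46 ± 0.16 in PP2CKO and 3.53 ± 0.20 in WT (± SD, n = 3 per line), a difference of -1.07. An exact two-sided permutation test over the libraries gave p = 0.1, the smallest that 3 against 3 allow, and an adjusted p of 0.15 over the 3 ratios. The difference of -1.07 was larger than the SD of either line. The permutation test cannot reach 0.05 for a single ratio here, so it cannot decide whether SWEET13a and SWEET13b changed unequally. The edgeR intervals of their log2 fold changes did not meet. They were -0.17 to 0.54 for SWEET13a and 0.81 to 1.71 for SWEET13b, from a fit that did not test the genes against each other. The ratio restates the fold changes of the 2 genes given above, and how often ratios of other gene pairs separate the lines was not tested.

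SWEET13 counts were then set against SUT1 counts, as sucrose release against sucrose uptake transcripts. The libraries held 2.24, 1.91 and 1.89 SWEET13 counts per SUT1 count in PP2CKO replicates 1, 2 and 3, against 0.956, 1.20 and 1.23 in WT replicates 1, 2 and 3. The lowest PP2CKO library was above the highest WT library. This had to follow, because after TMM scaling every PP2CKO library was above every WT library in the SWEET13 sum and below in SUT1. Neither passed the edgeR test (adjusted p = 0.302 for the sum and adjusted p = 0.0697 for SUT1). The log2 ratio averaged 1.004 ± 0.14 in PP2CKO and 0.17 ± 0.20 in WT (± SD, n = 3 per line), a 1.79-fold difference (exact two-sided permutation p = 0.1, adjusted p = 0.15 over the 3 ratios). Counts of different genes are not corrected for length, so the comparison between the lines can be read but the absolute ratio cannot. With 1 library left out the difference in log2 ratio ran from 0.72, without WT replicate 1, to 0.90, without WT replicate 3.

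SWEET13c did not shift against the other copies by more than the spread. It had 0.604, 0.515 and 0.644 counts per count of SWEET13a plus SWEET13b in PP2CKO replicates 1, 2 and 3, against 0.613, 0.502 and 0.656 in WT replicates 1, 2 and 3. The ranges of the lines overlapped almost entirely. The mean log2 ratio was -0.77 ± 0.17 in PP2CKO and -0.77 ± 0.20 in WT (± SD, n = 3 per line; exact two-sided permutation p = 1).

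**Figure D4:**
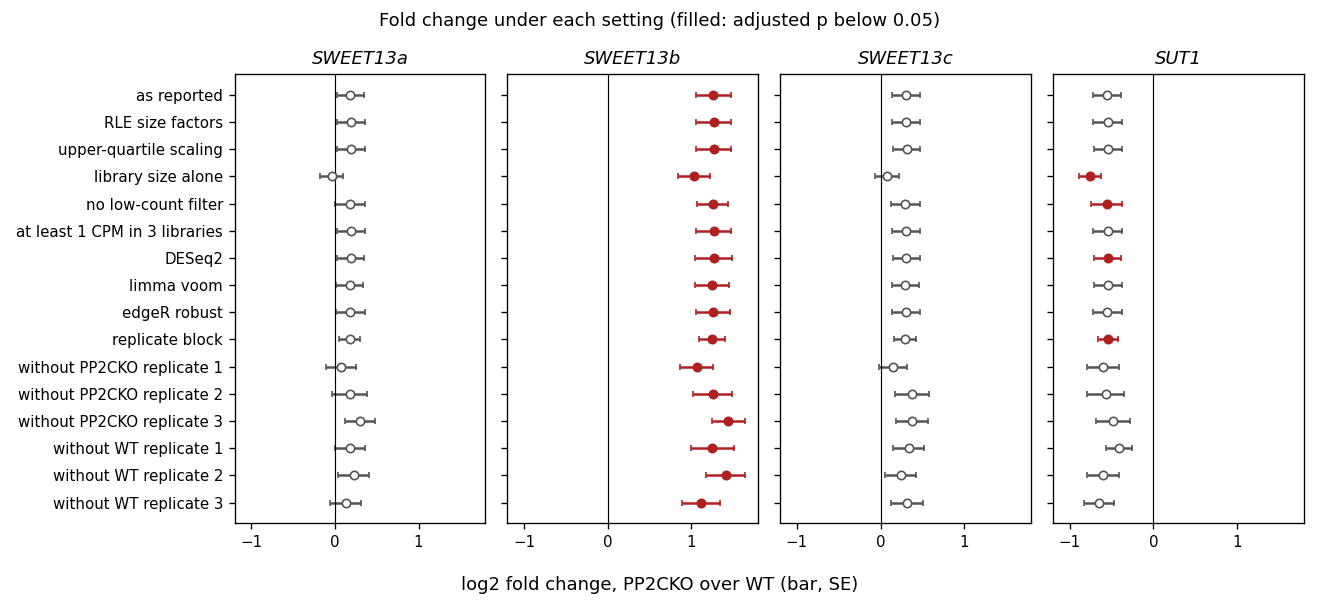
Log2 fold change of PP2CKO over WT (horizontal axes, bar of 1 SE) for each gene under the reported setting and 15 alternatives (rows), with filled red points where the adjusted p is below 0.05 and open grey points elsewhere. SWEET13b is filled in every row, SUT1 lies below 0 in every row and is filled in 4 of the alternatives, and SWEET13a and SWEET13c are open in every row.

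PP2CKO replicate 1 had the highest CPM of its line for all 4 genes, and it also had the lowest TMM factor of all libraries (0.869). Values without it are given beside each SWEET13 result. The other features most like these genes were found by Pearson correlation of log2 CPM over the 6 libraries, among 11769 features with a mean of at least 10 CPM. For the SWEET13 sum this was Zm00001d017770 (r = 0.996), with 144 ± 33.8 CPM in PP2CKO and 104 ± 3.59 CPM in WT (± SD, n = 3 per line). For SUT1 it was Zm00001d028396 (r = 0.997), with 44.7 ± 2.68 CPM in PP2CKO and 56.4 ± 5.92 CPM in WT (± SD, n = 3 per line). Neither feature passed the edgeR test, with adjusted p = 0.131 for the first and adjusted p = 0.197 for the second. Of the 11769 features, 89 exceeded r = 0.95 with the SWEET13 sum and 85 did so with SUT1. The second-highest r was 0.994 for the SWEET13 sum and 0.992 for SUT1, so the named features hardly stood out. The highest of so many correlations over 6 libraries can be near these values without any link between the genes. The count table does not pair these identifiers with names.

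The features with identifier numbers up to 5 away from each gene were also counted, since numbers of this release mostly follow position along a chromosome. Around SUT1, 0 of 5 tested neighbours were called (edgeR, 0 at an unadjusted p below 0.05), and around SWEET13c, 1 of 6 was called, lower in PP2CKO. Around SWEET13b, 1 of 4 was called, higher, and around SWEET13a, 2 of 3 were called, 1 higher and 1 lower. SWEET13a and SWEET13b have nearby numbers and their windows share features, so the higher call in both windows is 1 feature, Zm00001d023674, which is numbered next after SWEET13b. With so few neighbours these counts cannot be read against the 7.23% called over all features. Zm00001d023674 was singled out after its values were seen. It had 10.1 ± 1.71 CPM in PP2CKO and 5.45 ± 0.387 CPM in WT (± SD, n = 3 per line), with a log2 fold change of 0.89 ± 0.23 SE (edgeR adjusted p = 0.0404).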

How the data were processed

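Poly(A)-selected leaf RNA of 6 libraries was sequenced as paired reads, cleaned and mapped with STAR 2.4.0j to the B73 v4 genome, per the labels' protocols. The authors deposited raw counts per gene, not normalized. The counting tool, annotation release, strand setting and handling of reads that match several genes are not stated there. KN5585 reads were mapped to another inbred line, so divergent genes may be undercounted in both lines.

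Counts were tested with edgeR 4.0.16 (quasi-likelihood F test, R 4.3.3) on the whole table, with genotype as the only term, filterByExpr (minimum count 10, minimum total 15), TMM scaling and Benjamini-Hochberg adjustment over 21206 features. Intervals are 95% intervals from that fit. The procedure was tested on simulated data. Log2 CPM used a prior count of 2. Ratios of counts had 0.5 added to each and were compared by exact permutation of libraries. Alternatives were DESeq2 1.42.0, limma 3.58.1 (voom), other scalings and filters, a replicate block and each library left out in turn.

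The text names the 4 members and, for the SWEET13 sum and SUT1, the 1 most correlated other feature. It also names Zm00001d023674, a departure from the plan, which counted neighbours by identifier number without naming them. Members and lists were chosen with earlier results of these data known. Of 57 symbols for other sucrose and starch genes and 19 leaf markers, 0 could be tied to a row, because the reference gene table (Zm-B73-REFERENCE-NAM-5.0) holds no identifiers of this release. Sequences and coordinates are therefore not used here.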

Additional observations from a re-analysis of the deposited data

How the results depend on the processing

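SWEET13b was called higher in PP2CKO under each of the 15 alternatives, with log2 fold changes of 1.03 to 1.44 and adjusted p of 5.87e-07 to 0.0383. SWEET13c and the SWEET13 sum stayed positive and short of the threshold in all 15, at 0.08 to 0.38 and 0.08 to 0.41. SWEET13a turned to -0.039 with library size alone and was otherwise 0.07 to 0.30, never past the threshold. SUT1 was negative throughout, and it passed the threshold with library size alone (-0.762), no low-count filter (-0.559), DESeq2 (-0.547) and the replicate block (-0.541). Leaving out 1 library gave -0.651 to -0.413 for SUT1, none past the threshold. The count of features called was 1534, against 2453 with no low-count filter, which tests 29079 features, and 462 to 1550 with 1 library left out, which leaves fewer libraries by construction. With library size alone the median of all features moved to -0.231, and the estimates of SWEET13a and SUT1 moved with it. SWEET13a lay at 0.192 from that median, against 0.198 under TMM, and SUT1 at -0.531, against -0.539. For the other moves of SUT1 and SWEET13a between settings, the cause was not tested. The log2 ratio of SWEET13c to the other copies differed by -0.116 to 0.087 with 1 library left out, around 0, and the other ratios kept their direction under all 7 alternatives.

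The replicate block takes the replicate numbers of the titles as pairs. Libraries with the same number had correlations of 0.0525, 0.0888 and 0.0847 in their deviations from the line mean. These were positive but short of 0.1, a bound chosen for this report and not set by any test. The libraries were therefore treated as unpaired, and the call on SUT1 depends on that choice. With the block, SUT1 had an edgeR adjusted p of 0.0156, SWEET13b of 0.000688, SWEET13a of 0.412 and SWEET13c of 0.185, and 1860 features were called. With 3 libraries a line and library-to-library variation well above counting error, the intervals given with each gene bound what could be seen.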

Other observations

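The balance of SWEET13c against the other SWEET13 copies differed between libraries by replicate number more than by line, a pattern noticed after the values were seen. The log2 ratio of SWEET13c to SWEET13a plus SWEET13b was -0.727 in PP2CKO replicate 1 and -0.705 in WT replicate 1. It was -0.956 in PP2CKO replicate 2 and -0.993 in WT replicate 2, and -0.636 in PP2CKO replicate 3 and -0.608 in WT replicate 3. Same-numbered libraries were thus within 0.037 of each other, while the SD among libraries of a line was 0.165 in PP2CKO and 0.200 in WT. The ratio of SWEET13a to SWEET13b did not pair as closely, with same-numbered differences of PP2CKO minus WT of -1.217, -0.883 and -1.113. The labels do not say what the numbers mark, and whether they mark a shared tray, day or preparation was not tested.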
